A study of Rattus norvegicus with 14 samples.

Results

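Livers of Wistar rats, an outbred laboratory strain, were compared after 3 days on chow containing 1% orotic acid (2 arrays) and on plain chow (3 arrays, called controls 1, 2 and 3). The 5 arrays were taken by their source labels from the 14 of the series, whose other arrays hold Wistar livers after 14 days of orotic acid and livers of a strain called Kyoto after 1, 3 and 14 days. Each array was hybridised with biotin-labelled RNA from 1 liver sample and reads probe sets, groups of short probes for 1 transcript. All 5 livers were of rats from the same supplier that fed freely on standard chow, and the RNA came from the left lateral lobe. The orotic acid was mixed into that chow. Neither age nor sex is stated in the labels. They also do not say in so many words that each array was a separate animal, so p-values measure only the spread between samples. That spread, and so each standard error, was estimated from all 14 arrays of the series.

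Orotic acid is an intermediate of pyrimidine synthesis. Fed to rats, it fills hepatocytes with triglyceride, and the known defect is in the release of very low density lipoprotein (VLDL), which carries triglyceride out of the liver through the endoplasmic reticulum (ER) and Golgi. The ER folds secreted proteins with chaperones and protein disulfide isomerases. When unfolded proteins gather there, the sensors ATF6, IRE1 and PERK start the unfolded protein response, which raises the transcription of those chaperones. The comparison asks which liver transcripts differ early in feeding.

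Control 2 stood apart from its label, so most results are given with all 3 controls and again without control 2. A value given once is with all 3 controls. On 79 features that separated fed Kyoto from fed Wistar livers in a fit without any control array, a scale was set with the fed Wistar mean at 0 and the fed Kyoto mean at 1. The median position of control 2 was 0.936, that of control 1 was 0.0874 and that of control 3 was 0.0696, and the day 3 arrays lay at -0.000899 and -0.0972. Control 2 therefore lay among the Kyoto arrays on this scale, and controls 1 and 3 lay near 0. The day 3 arrays helped choose the features and set the 0 of the scale, so their positions do not test their strain. No control array took part in either step. A measure of RNA quality also moved with the groups: the 3'/5' signal ratio of the GAPDH control probe sets, which grows as RNA degrades, was 1.35 and 1.16 at day 3 and 3.38, 1.79 and 1.79 on controls 1, 2 and 3. These ratios did not overlap, and their part in the differences below was not tested. The same ratio of the actin control probe sets did overlap, at 1.44 and 1.26 against 1.97, 1.68 and 1.39. The labels give lot batch 1 for day 3 replicate 1 and controls 1 and 2. They give none for day 3 replicate 2 and control 3. Differences within each are therefore given for some gene lists and some of the named genes.

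**Figure D1:**
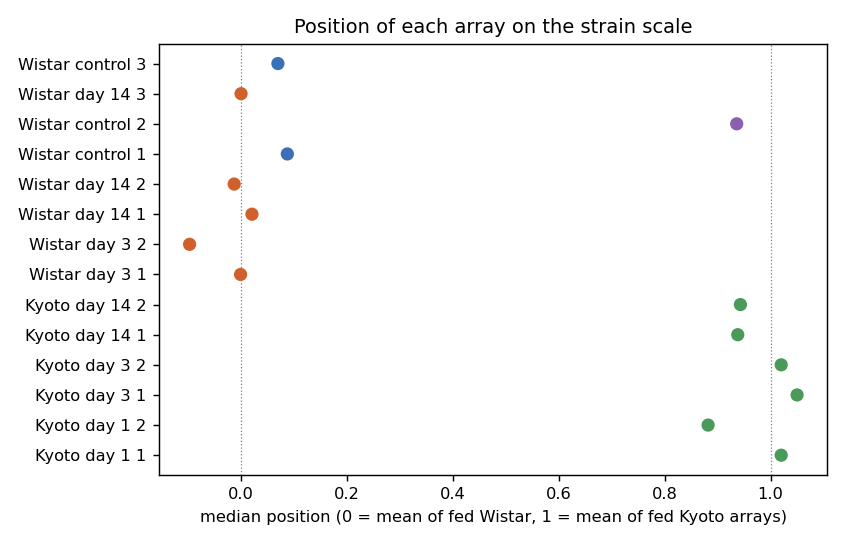
Each point is 1 array, placed at its median position over 79 features on a scale from the mean of fed Wistar arrays (0) to the mean of fed Kyoto arrays (1). Wistar control 2, at 0.936, lies with the Kyoto arrays, and controls 1 and 3 lie near 0. The day 3 arrays also lie near 0, but they helped set the scale.

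No feature passed an adjusted p of 0.05. With all controls, limma called 0 of 1909 tested features (0%), 200 had an unadjusted p under 0.05 (10.5%), and the smallest adjusted p was 0.0678. Of the 200, 86 were higher at day 3 (4.5%) and 114 lower (5.97%). Without control 2, limma again called 0 of 1909, 146 had an unadjusted p under 0.05 (7.65%), with 73 in each direction (3.82% each), and the smallest adjusted p was 0.0592. With weights for the quality of each array, 19 features passed with all controls and 16 without control 2. Words such as higher and lower below therefore describe means and do not state calls. All gene values are log2 of quantile normalized signal, a difference is day 3 minus control with its standard error after ±, and adjusted p-values are from the limma fit over all 1909 features.

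A coarser description counts means and ranges. With all controls 861 features had a higher mean at day 3 (45.1%), and without control 2 856 did (44.8%). Day 3 lay wholly above the controls in 278 features (14.6%) and wholly below in 374 (19.6%), and without control 2, which leaves 2 arrays against 2, in 343 (18%) and 495 (25.9%). With a difference of the means of at least 2-fold as well, 39 were higher (2.04%) and 27 lower (1.41%), and without control 2 the counts were 44 (2.3%) and 19 (0.995%). The median difference over all tested features was -0.038 with all controls and -0.047 without control 2. It was -0.18 with the signals as deposited and 0.060 after scaling each array to 1 trimmed mean, so differences are read against that shift. Under both of these scalings the medians of the ER chaperone, cholesterol and urea cycle lists stayed above 0, and those of the lipid droplet, glycolysis, Kupffer cell and interferon lists stayed below 0. With the signals as deposited the medians of the fatty acid synthesis, phosphatidylcholine and amino acid lists were -0.11, -0.018 and -0.10, against values above 0 after quantile normalization with all controls.

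The genes of ER protein folding were mostly higher at day 3. Of 20 on the array 18 were tested, 16 of them had a higher mean (45.1% of all features did) and 12 lay wholly above the controls (14.6%), and their median difference was 0.66 against -0.038 over all features. Hsp90b1, Hyou1, Pdia4, Dnajb9 and Hspa5 were at least 2-fold higher with no overlap between the groups, 5 of 18 where 2.04% of all features were. None passed over all features, and 7 had an unadjusted p under 0.05 upwards and 0 downwards, against 4.5% and 5.97% of all features. Those shares, and 3.82% each way without control 2, are the background for the counts of the lists that follow. Without control 2 the median was 0.77, 17 of 18 were higher, 6 were at least 2-fold higher without overlap, and 9 had an unadjusted p under 0.05 upwards (3.82% of all features).

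The promoters of Hspa5 and Hsp90b1, the genes of the best known ER chaperones, are shown because both hold a sequence that was searched for in the windows of all list members. The motif searched was CCAAT followed by 9 bases of any kind and CCACG, on both strands. This is the ER stress response element, which is known to be bound by NF-Y and ATF6. Windows of 300 bases, 250 before to 50 after each gene's start, were taken from RefSeq on GRCr8, and 22 of 33469 windows held it (0.0657%). Of the 18 tested list members 15 had a window and 5 of these held the motif, namely Calr, Canx, Ero1b, Hsp90b1 and Hspa5. Of the 5 genes at least 2-fold higher without overlap, Hyou1, Pdia4 and Dnajb9 had windows that did not hold it. Of all 1274 tested genes with a window 6 held it, the other one being Hnrnpa3. The Hspa5 window is chr3:38452766-38453065 on the plus strand and the Hsp90b1 window, which holds the motif on both strands, is chr7:23012244-23012543 on the minus strand. Capitals mark the motif.
Hspa5: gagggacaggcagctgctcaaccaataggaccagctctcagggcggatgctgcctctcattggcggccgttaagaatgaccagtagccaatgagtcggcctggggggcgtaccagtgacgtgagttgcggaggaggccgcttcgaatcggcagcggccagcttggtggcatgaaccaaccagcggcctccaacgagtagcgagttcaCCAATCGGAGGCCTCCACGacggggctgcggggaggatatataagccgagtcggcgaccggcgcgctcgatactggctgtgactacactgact
Hsp90b1: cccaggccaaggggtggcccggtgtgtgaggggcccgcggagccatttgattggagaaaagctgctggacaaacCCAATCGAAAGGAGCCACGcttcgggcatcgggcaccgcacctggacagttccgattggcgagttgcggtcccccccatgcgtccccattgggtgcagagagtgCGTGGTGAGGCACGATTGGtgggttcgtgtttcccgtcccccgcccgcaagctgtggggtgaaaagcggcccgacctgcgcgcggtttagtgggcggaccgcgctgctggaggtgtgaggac
For the other list members the matching bases alone are given, read on the motif's strand, with its fixed letters in capitals.
Calr: CCAATcagggtcgaCCACG
Canx: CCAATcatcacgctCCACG
Ero1b: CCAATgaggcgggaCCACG
A match is a description of the letters, and binding was not measured. The motif was chosen as a known element of ER stress genes, so its counts do not test the list.

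Hsp90b1 encodes GRP94, the HSP90 chaperone of the ER lumen. Its signal was 12.49 and 13.78 on the day 3 arrays and 11.10, 11.31 and 10.57 on controls 1, 2 and 3. Both day 3 arrays were above all controls, replicate 2 further than replicate 1, and the means differed by 2.14 ± 0.47, a 4.41-fold higher signal (adjusted p = 0.0981). Without control 2 the difference was 2.30 ± 0.52 (adjusted p = 0.181). Pdia4 is a protein disulfide isomerase of the ER. Its log2 signal was 11.45 and 12.24 on the day 3 arrays and 9.91, 9.86 and 10.17 on controls 1, 2 and 3. The groups were again apart, with a difference of 1.86 ± 0.41 (3.64-fold, adjusted p = 0.0981) and of 1.80 ± 0.46 without control 2 (adjusted p = 0.237).

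Hyou1, an ER chaperone of the HSP70 family, had signals of 10.69 and 11.79 on the day 3 arrays and 9.52, 8.79 and 9.58 on controls 1, 2 and 3. Here control 2 was the lowest array, and the difference of 1.94 ± 0.55 (adjusted p = 0.244) was 1.69 ± 0.59 without it. Hspa5 encodes BiP, the chaperone that also holds the stress sensors inactive. It read 12.10 and 12.82 on the day 3 arrays and 11.12, 11.63 and 11.13 on controls 1, 2 and 3, and control 2 was the highest control. The day 3 arrays stayed above it, by 1.16 ± 0.43 on average (adjusted p = 0.351) and by 1.33 ± 0.48 without control 2. Dnajb9, a co-chaperone of BiP, was at 7.89 and 8.51 on the day 3 arrays and 7.36, 6.86 and 6.88 on controls 1, 2 and 3, where 6.85 is the floor set for low signals. Controls 2 and 3 lay just above that floor, so the difference of 1.17 ± 0.42 (adjusted p = 0.32) rests on dim signals. It was 1.08 without control 2.

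The list's other members differed less. Slc3a2, the heavy chain of several amino acid transporters and a target of the PERK branch, differed by 0.85 ± 0.29 with no overlap. Its difference was 0.92 without control 2. Ero1b, an oxidase that recharges the disulfide isomerases, differed by 0.81 and overlapped with control 2, but was 1.05 higher and apart without it. The brightest probe sets of the calcium-binding lectin chaperones differed by 0.50 ± 0.25 for Calr and by 0.20 ± 0.52 for Canx (0.50 and 0.21 without control 2). Their dimmer probe sets differed by 0.73 and 0.99 for Calr and by 0.26 to 1.09 for Canx. Ero1b, Calr and Canx were chosen after their values were seen. The dimmer probe sets of Hsp90b1 were also higher, by 2.39 and 1.63, and the second probe set of Hyou1 by 1.77. Of the dimmer Hspa5 probe sets one was higher by 1.53 and one was at the floor on all 5 arrays.

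The 2 day 3 livers were not equally far from control. Within lot batch 1, day 3 replicate 1 minus control 1 gave a list median of 0.53, and with both controls of that batch 0.40. Without a lot batch, day 3 replicate 2 minus control 3 gave 0.93. For Hsp90b1 the values were 1.39 in lot batch 1 against control 1 and 3.21 without a lot batch. Without day 3 replicate 2 the list median was 0.38, and without replicate 1 it was 0.88.

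**Figure D2:**
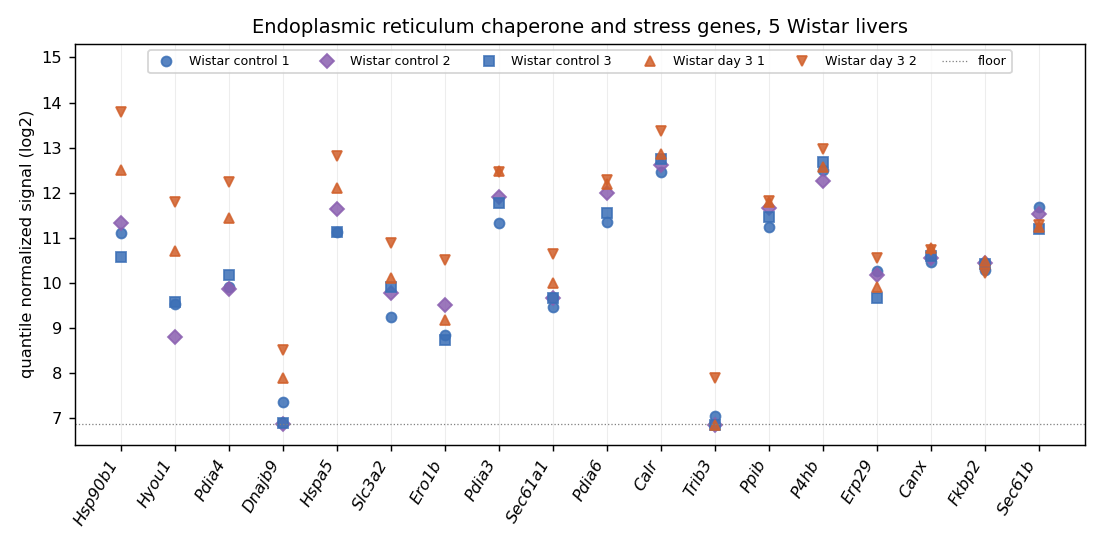
Quantile normalized log2 signal of the 18 tested ER chaperone and stress genes on each of the 5 Wistar arrays, ordered by the difference of the means, with the floor as a dotted line. Both day 3 arrays (triangles) lie above all controls for Hsp90b1, Hyou1, Pdia4, Dnajb9 and Hspa5, and replicate 2 lies above replicate 1 in each of these.

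Serp1 and Slc35b1 were among the 10 higher genes with the smallest p without control 2, and not among them with all controls. Serp1, a small protein that stabilises membrane proteins during ER stress, read 11.16 and 11.69 on the day 3 arrays and 10.30, 10.75 and 10.28 on controls 1, 2 and 3. Its groups were apart, by 0.98 ± 0.30 and by 1.14 ± 0.33 without control 2 (adjusted p = 0.251 and 0.332). Slc35b1, a nucleotide transporter of the ER membrane, differed by 0.87 ± 0.29 and by 1.04 ± 0.31 without control 2. Ssr3, a subunit of the translocon-associated complex, differed by 1.17 ± 0.37 and 1.22 ± 0.42, and was chosen after its value was seen. Of 10 tested genes of cytosolic heat shock proteins 3 were higher, with a median of -0.076 (-0.011 without control 2).

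Genes of fatty acid and triglyceride synthesis lay in both directions. Of 13 tested, 7 were higher and 6 lower, with a median of 0.079 and of -0.0038 without control 2, and 2 had an unadjusted p under 0.05 in each direction (2 upwards and 3 downwards without control 2). Gpam, the mitochondrial acyltransferase that starts glycerolipid synthesis, read 9.46 and 10.55 on the day 3 arrays and 7.89, 8.24 and 7.72 on controls 1, 2 and 3. The day 3 arrays were well above every control, by 2.06 ± 0.47 on average (4.16-fold, adjusted p = 0.102) and by 2.20 ± 0.52 without control 2 (adjusted p = 0.188). All 5 Gpam probe sets were higher, the other 4 by 0.45 to 1.42 at lower signal. Among these, 3 had 4, 3 and 2 of the 5 arrays at the floor. The 1 with no array at the floor differed by 1.03 (0.77 without control 2). Gpam differed by 1.57 within lot batch 1 against control 1 and by 2.84 without a lot batch.

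Scd, the stearoyl-CoA desaturase that makes monounsaturated fatty acids, read 10.59 and 8.85 on the day 3 arrays and 12.33, 10.74 and 11.96 on controls 1, 2 and 3. Both day 3 arrays were below every control, but replicate 1 lay only just below control 2. The difference was -1.96 ± 0.53, a 3.89-fold lower signal (adjusted p = 0.243), and -2.43 ± 0.51 without control 2 (adjusted p = 0.139). Replicate 2 was the lower of the 2, and without it the difference was -1.09 with all controls. Scd differed by -1.75 within lot batch 1 against control 1 and by -3.11 without a lot batch. Without control 2 and without day 3 replicate 1, Scd was the 1 feature that passed, at -3.29 (adjusted p = 0.038), with 1 day 3 array assumed to vary like the other groups.

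Fasn, the fatty acid synthase, read 9.87 and 9.87 on the day 3 arrays and 9.14, 8.64 and 7.07 on controls 1, 2 and 3. The day 3 arrays were above all controls, and control 3 was well below the other two. The difference of 1.59 ± 0.56 (adjusted p = 0.32) became 0.98 without control 3 and 1.76 without control 2. Fasn differed by 0.73 within lot batch 1 against control 1 and by 2.80 without a lot batch. A second, slightly dimmer Fasn probe set differed by -0.29 (-0.73 without control 2), so the probe sets of this gene disagreed in both fits. Elovl5, an elongase, differed by -0.56 ± 0.21 with no overlap (-0.59 without control 2). Acly, which supplies cytosolic acetyl-CoA, differed by -0.63 ± 0.30 with overlap. Without control 2 its difference was -0.81 and the groups were apart. The dimmer Acly probe sets differed by -0.24 and by 0.78, the last with 1 array at the floor, so its probe sets disagreed. Srebf1, the transcription factor of lipogenesis, differed by 0.11 ± 0.38 and by 0.0056 without control 2.

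Cholesterol synthesis and uptake genes were mixed as well. Of 14 tested, 10 were higher (8 without control 2), with a median of 0.22 that was 0.081 without control 2. Lss, the lanosterol synthase, read 9.83 and 10.06 on the day 3 arrays and 9.07, 8.37 and 9.15 on controls 1, 2 and 3. It differed by 1.08 ± 0.32, and by 0.83 ± 0.33 without control 2, which was the lowest array. Idi1, the isopentenyl diphosphate isomerase, differed by 1.17 with all controls and by 0.68 without control 2, where it read 7.61 against 9.19 and 8.94 on controls 1 and 3. Insig1, which holds the sterol sensor in the ER, read 10.39 and 10.10 on the day 3 arrays and 11.98, 11.14 and 10.85 on controls 1, 2 and 3. It was lower on both day 3 arrays, by -1.08 ± 0.35 and by -1.17 ± 0.39 without control 2. Nsdhl, a sterol dehydrogenase, differed by -0.48 (-0.61 without control 2).

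Of 15 tested genes of lipoprotein assembly and handling, 4 were higher and 11 lower, with a median of -0.087 (-0.12 without control 2). Apob, the scaffold protein of VLDL, read 12.59 and 12.60 on the day 3 arrays and 12.70, 12.79 and 12.86 on controls 1, 2 and 3. The difference was only -0.19 ± 0.41 for this brightest probe set, -0.18 ± 0.46 without control 2. The gene's 5 probe sets disagreed, however: the second brightest differed by 0.086, and another, at a mean signal of 9.90, by 3.11. Apoa4, an apolipoprotein of nascent particles, differed by -1.07 ± 0.41 with no overlap and by -0.94 without control 2. Apoa1, of high density lipoprotein, differed by -0.46 (-0.31 without control 2) with overlap, and Ces1d, a carboxylesterase, by 1.15 (0.64 without control 2). A dimmer Apoa1 probe set differed by -0.97 (-0.65 without control 2).

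Lipid droplet and fatty acid binding genes were mostly lower. Of 7 tested 6 were lower and 1 was higher (7 lower without control 2), with a median of -0.46 (-0.39 without control 2), and 2 had an unadjusted p under 0.05 downwards in both fits (5.97% of all features, and 3.82% without control 2). Plin2, the main coat protein of hepatocyte droplets, read 11.50 and 11.19 on the day 3 arrays and 12.10, 12.53 and 12.01 on controls 1, 2 and 3. All day 3 values were below all controls, by -0.87 ± 0.26 (adjusted p = 0.251), or -0.71 ± 0.28 without control 2, the highest control. Hsd17b13, another droplet protein, read 9.19 and 9.64 on the day 3 arrays and 10.43, 10.59 and 10.24 on controls 1, 2 and 3. It too was apart, at -1.01 ± 0.28 and at -0.92 ± 0.32 without control 2. Fabp1, the liver fatty acid binding protein, differed by -0.15, Fabp5 by -0.46 and Dbi, the acyl-CoA binding protein, by -0.36. These values were -0.088, -0.31 and -0.39 without control 2.

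Fatty acid oxidation genes were evenly divided. In mitochondria 9 of 17 were higher, with a median of 0.0097 (0.0070 without control 2), 2 with an unadjusted p under 0.05 upwards and 0 downwards (3 and 0 without control 2). Eci1, the enoyl-CoA isomerase for unsaturated fatty acids, read 11.78 and 11.56 on the day 3 arrays and 10.58, 11.21 and 10.90 on controls 1, 2 and 3. It was apart, at 0.77 ± 0.23 (adjusted p = 0.251) and at 0.93 ± 0.24 without control 2 (adjusted p = 0.237). A second Eci1 probe set, nearly as bright, differed by 0.27 (0.47 without control 2). Hadhb, a subunit of the trifunctional protein, differed by 0.63 ± 0.21 with no overlap, and Acads, the short-chain dehydrogenase, by -0.60. These values were 0.60 and -0.50 without control 2. Cpt1a, which admits fatty acids to mitochondria, read 10.32 and 9.63 on the day 3 arrays and 8.82, 9.93 and 9.59 on controls 1, 2 and 3. Replicate 2 lay below control 2, so the groups overlapped, at 0.53 ± 0.32, and were apart without control 2, at 0.77 ± 0.32.

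Of 13 tested peroxisomal and omega oxidation genes 8 were higher (5 without control 2). Cyp4a1, the fatty acid omega-hydroxylase, differed by 0.81 ± 0.36 and by 0.92 without control 2, and its 3 probe sets were all higher. Dao, the peroxisomal D-amino acid oxidase, read 8.36 and 7.94 on the day 3 arrays and 9.27, 10.33 and 9.65 on controls 1, 2 and 3. Its day 3 signals were below every control, by -1.60 ± 0.37 on average (3.04-fold, adjusted p = 0.102). Control 2 was its highest array, and without it the difference was -1.31 ± 0.36 (adjusted p = 0.303).

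**Figure D3:**
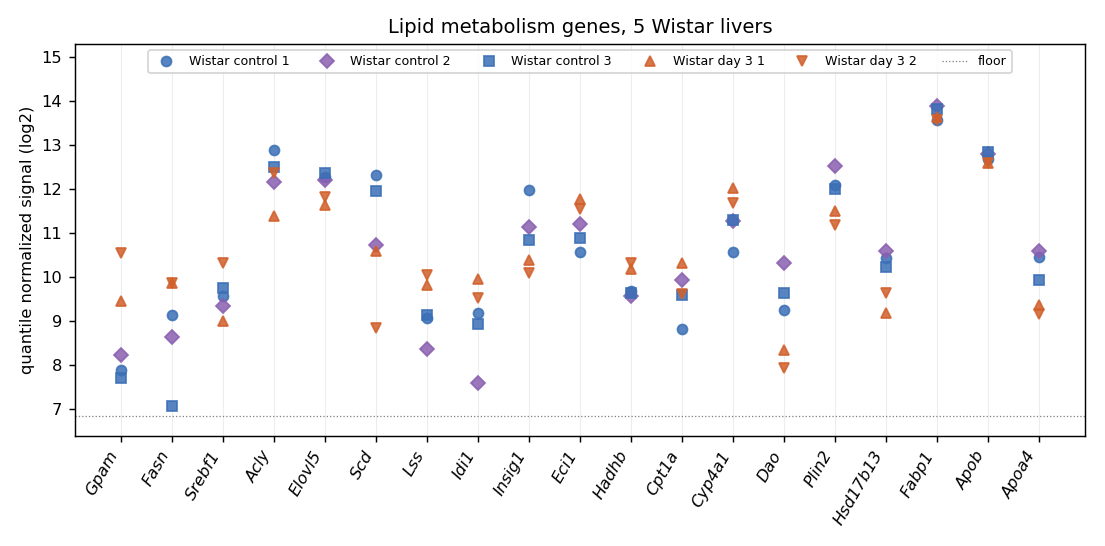
Quantile normalized log2 signal of 19 lipid metabolism genes on each of the 5 Wistar arrays, with the floor as a dotted line. Gpam and Fasn lie above all controls on both day 3 arrays (triangles), and Scd, Insig1, Dao, Plin2 and Hsd17b13 lie below all controls.

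Bile acid genes had 6 of 14 higher and 0 with an unadjusted p under 0.05 with all controls (1 upwards without control 2). Cyp7a1, which sets the rate of bile acid synthesis, differed by -0.47 ± 0.45 and Nr1h4, the bile acid receptor FXR, by -0.53 ± 0.28. These values were -0.45 and -0.57 without control 2. Of 16 phosphatidylcholine and methionine cycle genes 10 were higher, with a median of 0.13 (0.14 without control 2). Chka, which phosphorylates choline, read 9.10 and 8.34 on the day 3 arrays and 9.56, 9.54 and 9.59 on controls 1, 2 and 3. Its controls lay close together and both day 3 arrays below them, at -0.84 ± 0.31 (adjusted p = 0.351) and -0.85 ± 0.35 without control 2. Pemt, which methylates phosphatidylethanolamine, differed by -0.38 (-0.31 without control 2) with overlap.

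Pyrimidine and purine genes had 6 of 12 higher (3 of 12 without control 2) and medians of -0.062 and -0.15. These 12 are mostly genes of breakdown, salvage and transport. The enzyme that takes orotic acid into pyrimidine synthesis was not among them. Nme1, a nucleoside diphosphate kinase, read 8.27 and 8.66 on the day 3 arrays and 9.08, 9.05 and 9.13 on controls 1, 2 and 3. It was lower on both day 3 arrays, by -0.63 ± 0.23 and by -0.64 ± 0.26 without control 2. The pyrimidine breakdown enzymes Dpyd and Upb1 differed by -0.25 ± 0.44 and 0.030 ± 0.26, and the urate oxidase Uox by -0.27 ± 0.26, all with overlap. Without control 2 these values were -0.15, 0.023 and -0.48, and for Uox the groups were then apart. A dimmer Dpyd probe set differed by 0.072 with all controls, so the probe sets of Dpyd disagreed. The dimmer Uox probe sets differed by -0.66 and -0.97 (-0.55 and -1.09 without control 2), the last with 2 arrays at the floor.

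In the urea cycle and ornithine list 8 of 11 genes were higher, with a median of 0.30 (0.28 without control 2), and 2 had an unadjusted p under 0.05 upwards and 0 downwards in both fits. Oat, the ornithine aminotransferase, read 12.04 and 11.96 on the day 3 arrays and 11.14, 10.93 and 10.99 on controls 1, 2 and 3. Its day 3 signals were above every control, at 0.98 ± 0.28 (adjusted p = 0.244) and 0.94 ± 0.32 without control 2. A dimmer Oat probe set differed by 0.49 (0.43 without control 2). Cps1, the carbamoyl phosphate synthetase that opens the urea cycle, differed by 0.49 ± 0.18 with no overlap (0.47 without control 2). A second Cps1 probe set, nearly as bright, differed by 0.26 (0.16 without control 2). Odc1, the ornithine decarboxylase of polyamine synthesis, differed by 0.64 ± 0.36 (0.62 without control 2).

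Amino acid genes had 15 of 23 higher in both fits and a median of 0.19 (0.17 without control 2), with 4 at an unadjusted p under 0.05 upwards and 3 downwards (3 and 3 without control 2). Ddc, the aromatic amino acid decarboxylase, read 9.16 and 9.38 on the day 3 arrays and 10.56, 10.22 and 10.14 on controls 1, 2 and 3. All controls were above both day 3 arrays, and the difference was -1.04 ± 0.24 (2.05-fold lower, adjusted p = 0.124) and -1.08 ± 0.28 without control 2. Csad, of taurine synthesis, differed by -1.09, Kyat1, a kynurenine aminotransferase, by -0.93 and Haao, of tryptophan breakdown, by -0.70. These values were -1.28, -0.69 and -0.71 without control 2. A dimmer Haao probe set differed by -0.22 (-0.23 without control 2). Kyat1 is not a member of the list. Phgdh, the first enzyme of serine synthesis, was higher on both day 3 arrays, by 0.94 ± 0.29 and by 1.14 ± 0.30 without control 2. The other members with an unadjusted p under 0.05 upwards with all controls were Acadsb, Aldh6a1 and Gpt, named after their values were seen. They differed by 1.315, 0.81 and 0.69 (1.37, 0.79 and 0.46 without control 2).

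Of 18 genes of glycolysis, gluconeogenesis and glycogen, 13 were lower (12 without control 2). The median was -0.22 (-0.33 without control 2), and 3 had an unadjusted p under 0.05 downwards and 0 upwards in both fits. Pc, the pyruvate carboxylase of gluconeogenesis, read 9.70 and 9.44 on the day 3 arrays and 10.39, 10.72 and 10.63 on controls 1, 2 and 3. It was apart, at -1.01 ± 0.27 and at -0.94 ± 0.31 without control 2 (adjusted p = 0.243 and 0.52). Khk, the fructose kinase, read 11.25 and 11.10 on the day 3 arrays and 12.15, 11.88 and 12.12 on controls 1, 2 and 3. Its difference was -0.88 ± 0.24 and -0.96 ± 0.27 without control 2. Pfkfb1, which sets the level of fructose 2,6-bisphosphate, differed by -0.66 in both fits. Citric acid cycle and oxidative phosphorylation genes stayed near the rest, with 15 of 40 higher and a median of -0.071 (13 and -0.094 without control 2).

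Among 34 cytochromes P450 and reductases 17 were higher, and 5 had an unadjusted p under 0.05 upwards with all controls but 1 without control 2. Cyp2a1, a testosterone hydroxylase, differed by 0.79 ± 0.23 and by 0.65 ± 0.25 without control 2, and Cyp2e1, which oxidises ethanol, by 0.48 ± 0.20 and 0.37 ± 0.21. Members of these families are alike in sequence, and the probe sets may not separate them. Conjugation and antioxidant genes had 15 of 39 higher and a median of -0.12 (-0.17 without control 2). The glutathione transferases of the theta class went opposite ways: Gstt1 read 8.65 and 8.39 on the day 3 arrays and 9.75, 9.52 and 9.51 on controls 1, 2 and 3. It was lower, by -1.07 ± 0.28 (adjusted p = 0.208), and Gstt2 was higher, by 0.83 ± 0.33 (-1.11 and 0.93 without control 2). Ugt1a5, a glucuronosyltransferase of a locus whose transcripts share exons, differed by 1.34 (1.01 without control 2). Sod1, the cytosolic superoxide dismutase, differed by -0.76 (-0.71 without control 2).

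Growth hormone dependent and sex-patterned genes had 6 of 19 higher, with a median of -0.11 (-0.12 without control 2). Ghr, the growth hormone receptor, read 10.97 and 11.06 on the day 3 arrays and 12.60, 12.87 and 12.37 on controls 1, 2 and 3. At day 3 it lay well below every control, at -1.60 ± 0.43 (3.03-fold lower, adjusted p = 0.243) and -1.47 ± 0.48 without control 2 (adjusted p = 0.52). In a fit of these 2 groups alone Ghr passed (adjusted p = 0.0359). Its 2 dimmer probe sets differed by 0.13 and -0.090, so the gene's probe sets disagreed. Igfals and Igf1, circulating products of growth hormone action, differed by -0.81 ± 0.27 and -0.52 ± 0.34, both with no overlap, and by -0.61 and -0.31 without control 2.

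Plasma protein genes were evenly divided, 23 of 42 higher (25 without control 2). Orm1, an acute phase glycoprotein, read 12.56 and 12.62 on the day 3 arrays and 13.42, 13.70 and 13.13 on controls 1, 2 and 3. It was lower, by -0.83 ± 0.24 and by -0.68 ± 0.26 without control 2. Masp1, a protease of the lectin pathway of complement, was higher, by 1.16 ± 0.46 and 1.35 ± 0.50. Alb, the albumin gene, differed by 0.012 ± 0.12 (-0.024 without control 2), and its other probe sets above the floor by -0.0015 and -0.054. The summed signal of 9 hepatocyte markers was 145631 to 149258 at day 3 and 151504 to 157448 in controls, so markers of the labelled tissue were bright on all 5 arrays.

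The 2 largest named differences among ribosomal protein genes did not stand for their list. Rpl5 was at 8.56 and 8.75 on the day 3 arrays and at the floor of 6.85 on all 3 controls. Its signal was thus at least 3.51-fold higher in both fits (adjusted p = 0.0678, and 0.139 without control 2). Rps24 read 9.78 and 9.63 on the day 3 arrays and 6.85, 7.79 and 7.76 on controls 1, 2 and 3, with control 1 at the floor, and was at least 4.73-fold higher (adjusted p = 0.0981, and 0.181 without control 2). Of the 38 tested ribosomal protein genes 26 were lower (27 without control 2), with a median of -0.12 in both fits. Rpl35a differed by -0.70 (-0.51 without control 2). Proteasome and ubiquitin genes had 18 of 25 lower (15 without control 2).

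All 11 tested interferon and inflammatory genes had a lower mean at day 3 in both fits, where 45.1% of all features had a higher one with all controls and 44.8% without control 2. The median was -0.62 with all controls and -0.32 without control 2, and 4 had an unadjusted p under 0.05 downwards with all controls (5.97% of all features) but 1 without control 2 (3.82%). Psmb9, an immunoproteasome subunit, read 8.20 and 7.93 on the day 3 arrays and 9.18, 9.92 and 8.62 on controls 1, 2 and 3. Control 2 was the highest array, and the difference of -1.18 ± 0.32 was -0.84 ± 0.28 without it. Irf7, an interferon regulatory factor, was at the floor on both day 3 arrays and on control 3, and at 8.29 and 8.82 on controls 1 and 2, so the size of its difference is not known. Tap1, the peptide transporter of antigen presentation, differed by -0.62 (-0.53 without control 2) and Stat2, of interferon signalling, by -0.71 (-0.45). Without a lot batch, replicate 2 minus control 3 gave a list median of -0.10, against -0.61 for replicate 1 minus control 1 in lot batch 1.

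Markers of resident macrophages (Kupffer cells) had a lower median with all controls than without control 2. In whole liver, fewer cells of a type and less RNA per cell cannot be told apart. The summed signal of 9 Kupffer cell markers was 6930 and 6981 at day 3 and 6985, 9856 and 7532 on controls 1, 2 and 3. The day 3 sums lay just below control 1, and control 2 was well above the rest. Of 8 tested markers 5 were lower and 3 higher with all controls, and 4 were lower and 4 higher without control 2. The median was -0.31 (-0.11 without control 2). Clec4f, a Kupffer cell lectin and among the 79 strain features, differed by -0.65 ± 0.27 and by -0.42 ± 0.27 without control 2. C1qb, a complement chain, differed by -0.57 and -0.45, and Hmox1, the heme oxygenase, by -0.71 and -0.42. The 3 higher markers, named after their values were seen, went the other way. Cd14 differed by 0.46 (0.47 without control 2), Fcgr2b by 0.36 (0.50) and Lyz2 by 0.027 (0.22).

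Other cell types gave overlapping sums. Stellate cell and matrix markers summed to 16880 and 19160 at day 3 against 13400 to 18431 in controls. Lymphoid markers summed to 4883 and 5470 against 4717 to 6183, with Gzmb at the floor on all 5 arrays. RT1-DMb, of class II presentation, differed by -0.77 (-0.70 without control 2). Endothelial markers summed to 1794 and 1803 against 1663 to 1985, with Pecam1, Selp, Nos3 and Vcam1 at the floor. Bile duct markers summed to 4087 and 4371 against 3837 to 5296, with Krt19, Epcam, Anxa4 and Sctr at the floor. Red cell and neutrophil markers summed to 11389 and 11589 against 7995 to 17545, the highest being control 2.

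Several genes of no list led the lower side. Cyba, a subunit of the NADPH oxidase, read 7.48 and 7.08 on the day 3 arrays and 8.32, 9.62 and 8.51 on controls 1, 2 and 3. Both day 3 arrays were below all controls and control 2 was the highest, at -1.54 ± 0.34 (2.9-fold lower, adjusted p = 0.0981) and -1.14 ± 0.27 without control 2 (adjusted p = 0.199). Ptprs, a receptor tyrosine phosphatase, read 6.996 and 6.88 on the day 3 arrays and 7.96, 9.01 and 8.15 on controls 1, 2 and 3. It had the same shape, at -1.43 ± 0.31 and -1.12 ± 0.28, with day 3 signals close to the floor. Gucy1b2, a soluble guanylate cyclase subunit, read 7.86 and 8.02 on the day 3 arrays and 8.74, 9.25 and 9.20 on controls 1, 2 and 3. It was apart, at -1.12 ± 0.24 (adjusted p = 0.0981) and -1.03 ± 0.27 (adjusted p = 0.249).

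Without control 2 the leading genes also took in Orai1, a calcium channel of the plasma membrane, at -1.59 ± 0.46 with 1 day 3 array at the floor, and Acp5, an acid phosphatase, at -1.02 ± 0.31. On the higher side they took in Onecut1, a hepatocyte transcription factor, which read 8.92 and 9.46 on the day 3 arrays and 7.43, 9.30 and 8.33 on controls 1, 2 and 3. With all controls it overlapped with control 2, at 0.84 ± 0.46, and without it the difference was 1.31 ± 0.41.

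**Figure D4:**
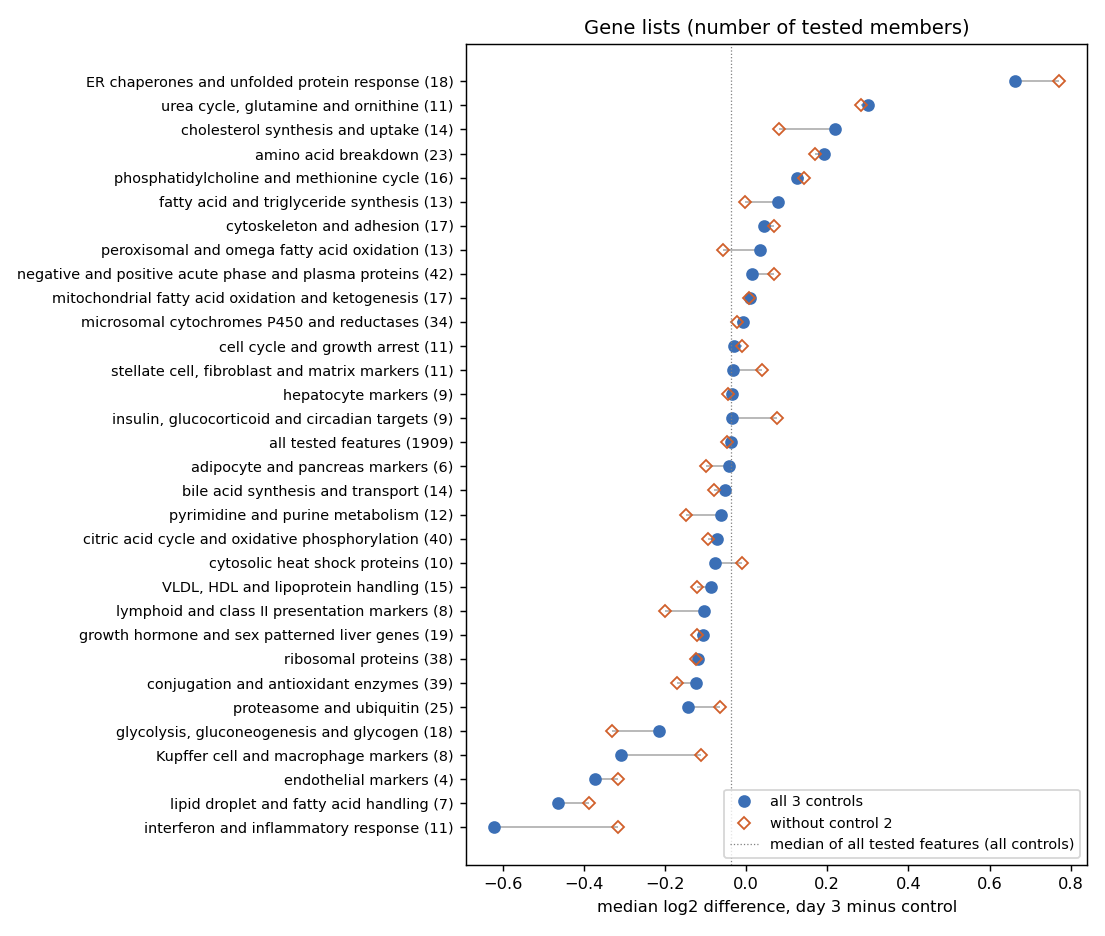
Median log2 difference (day 3 minus control) of each gene list with at least 4 tested members, with all 3 controls (filled circles) and without control 2 (open diamonds), and the number of tested members in brackets. The ER chaperone list lies farthest to the right, at 0.66 and 0.77, and the interferon list moves from -0.62 to -0.32 when control 2 is left out.

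The values of a small set of genes turned on control 2, here chosen after their values were seen. Leaving it out moved 20 of 1909 features by more than 1.5-fold, 17 of which were among the 79 strain features, and 218 features changed sign. Of the 79, 25 had an unadjusted p under 0.05 with all controls (10.5% of all features) and 17 without control 2 (7.65%). The day 3 arrays helped choose the 79, so these counts are no independent test. Cyba, Ptprs, Dao, Psmb9, Phgdh, Ugt1a5, Orm1, Igfals, Lss, Idi1, Irf7, Clec4f and RT1-DMb, described above, are among the 79. Mst1, a growth factor secreted by the liver, read 10.44 and 10.74 on the day 3 arrays and 11.10, 7.33 and 11.07 on controls 1, 2 and 3. Control 2 was far below the other 4 arrays, and the difference turned from 0.76 ± 0.79 to -0.50 ± 0.28 without it. Ces2e, a carboxylesterase, was at the floor on control 2 alone, with a difference of 1.27 that was 0.076 without it. Serpina3m, a serpin, went from 0.87 to 0.087 and Aldh1a1, a retinaldehyde dehydrogenase, from 1.14 to 0.37. Igfbp1, an insulin-repressed binding protein of IGF, read 9.78 and 8.10 on the day 3 arrays and 9.93, 11.25 and 8.15 on controls 1, 2 and 3. Its values overlapped, and the difference was -0.84 ± 0.78 with all controls and -0.099 ± 0.73 without control 2.

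**Figure D5:**
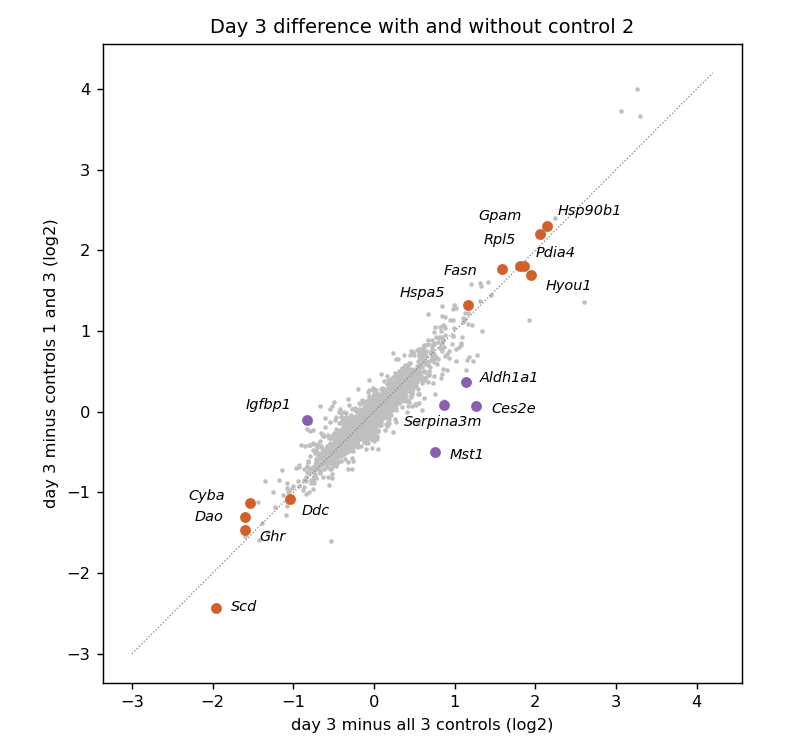
Each point is 1 of 1909 features, placed by its log2 difference (day 3 minus control) with all 3 controls (x axis) and with controls 1 and 3 alone (y axis), with the line of equal values dotted. Hsp90b1, Gpam, Pdia4 and Hyou1 lie near the line, and Scd lies further from it, at -1.96 and -2.43. Mst1, Ces2e, Serpina3m, Aldh1a1 and Igfbp1 (purple) lie more than 1.5-fold off the line.

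The largest differences of all belonged to probe sets that the platform table gives no single symbol, which are therefore not named by gene. Probe set rc_AI102562_at read 13.99 and 12.18 at day 3 and 8.25, 10.53 and 10.60 on controls 1, 2 and 3. The groups were apart but both were widely spread, at 3.29 ± 0.79 (adjusted p = 0.138) and 3.66 ± 0.86 without control 2. Probe set rc_AA800849_f_at had the smallest adjusted p without control 2 (0.0592), at 1.60 ± 0.26, and 1.41 ± 0.25 with all controls (adjusted p = 0.0678).

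In a comparison with day 14 of feeding the means use no control array, although the standard errors draw on the spread of all 14 arrays. Between 2 day 3 and 3 day 14 Wistar arrays limma called 0 of 1909 features, with 85 below 0.05 before adjustment (4.45%) and the smallest adjusted p at 0.993. Hsp90b1 was at a mean of 13.14 at day 3 and 11.99 at day 14, a difference of 1.15 ± 0.47 (adjusted p = 0.993). The median of the ER list was 0.22 (day 3 minus day 14). Gpam differed by 1.01 ± 0.47 and Ghr by -0.52 ± 0.43 between those days.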

How the data were processed

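The authors deposited 1 intensity per probe set and array in linear units; per the submitters' processing notes the tool was MAS5, and its version and scaling target are not given in the sources used. Of 4502 rows, 24 control probe sets and 375 rows with a blank on any array were left out. Log2 intensities were quantile normalized and floored at their 25th percentile (115, or 6.85 on the log2 scale). Of the probe sets with 1 symbol in the platform table, the one with the highest mean stood for its gene, and the upper 60% of 3181 features (1909, of which 1502 had 1 symbol) were tested. Group means of all 14 arrays were fitted with limma 3.58.1 (R 4.3.3; lmFit, eBayes with trend, 8 residual degrees of freedom, 7 without control 2), with Benjamini-Hochberg adjustment over all features at 0.05. The fit was also run on data simulated with independent noise. That simulation held no array of another strain, so it does not test how the fit handles control 2. With 2 arrays against 3, the number of arrays limits the precision.

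Members and lists were chosen with earlier results of these data known. Genes were named by this rule: in each fit the 10 with the smallest p in each direction, up to 4 of smallest p in each list with at least 4 tested members, and a fixed set of liver genes; others are said to be chosen after their values were seen. Lists were described by counts and medians, with no set test. Alternatives were other scalings, floors, filters, probe set rules, groups in the fit, variance models, batch blocks and leaving out each array.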

Additional observations from a re-analysis of the deposited data

How the results depend on the processing

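With all controls, the count of features past an adjusted p of 0.05 was 0, and it was 1 after trimmed mean scaling (Rpl5), 1 with every probe set tested on its own (a probe set of Ywhae, chosen after its value was seen), 5 in a fit of the 2 groups alone (Ghr, Pdia4, Rps24, Rpl5 and a probe set with no single symbol) and 19 with array weights. Leaving out single arrays gave 0 to 0. Without control 2 the count was 0, and it was 1 with the upper 40% of features (a probe set with no single symbol), 1 with no filter (Muc13, chosen after its value was seen, at -0.29) and 16 with array weights. Leaving out a further array gave 0 to 1: 1 without day 3 replicate 1 (Scd), 1 without day 3 replicate 2 (Ugt2b, chosen after its value was seen) and 1 without control 3 (a probe set with no single symbol). Day 3 against day 14 gave 0 in each alternative run. Under these alternatives 90 of the genes in the text gave 1961 values. Of these, 1918 kept their direction and side of the threshold. Another 20 passed it where the value given had not, and 23, of 7 genes, reversed. The signals as deposited reversed Canx (-0.0098), Srebf1 (-0.034), Upb1 (-0.27) and Alb (-0.30), trimmed mean scaling reversed Upb1 (-0.032) and Alb (-0.058), and a block for arrays with blank rows reversed Canx (-0.14) and Upb1 (-0.046). With single arrays left out, Srebf1 ran from -0.54 to 0.76, Dpyd from -0.55 to 0.061, Igfbp1 from -1.67 to 0.0046, Upb1 from -0.050 to 0.12, Alb from -0.10 to 0.13 and Mst1 from -0.50 to 1.39. Without control 2, also with a lot batch block, with only the 3 Wistar groups or with control 2 as its own group, Alb was -0.024 and Mst1 -0.50. The cause was not tested. No paired analysis was possible because the labels give no replicate numbers that the groups share. Dim signals limit the genes at the floor: a difference is a bound where 1 group alone has arrays there (Rpl5, Rps24, Orai1, Ces2e), and of unknown size where both have (Irf7).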
